A study of Mus musculus with 9 samples.

Results

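The interferon-stimulated genes described here are 37 named mouse genes that cells switch on when interferon binds its receptor. They were taken by gene symbol from an array that measured 22180 genes, with the feature of highest mean kept where a gene had several. Of the 37, 33 had a feature of their own and were measured. Oas1a, Gbp2 and Dtx3l lay only on features shared with a second gene (Oas1g, Gbp2b and Parp9) and no feature was named for Ifi44, so these 4 were not analysed here.

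The study asked how TAMH cells answer a pair of bipyridylium herbicides that cycle between oxidised and reduced forms and so generate superoxide. TAMH is a hepatocyte line from mice transgenic for transforming growth factor alpha, and it was grown here in medium with dexamethasone, nicotinamide and insulin, transferrin and selenium, at passages 30 to 40. The 3 groups were cells given diquat at 18 µM, cells given paraquat at 126 µM and control cells given medium alone, each for 9 h with 3 Affymetrix Mouse Gene 2.1 ST arrays. The doses differ, so the direct comparison is of these treatments and not of the compounds at equal dose. Dexamethasone, a glucocorticoid, was in the medium of all 3 groups. The cells were grown in 3 dishes per treatment, and nothing in the labels tells whether the dishes were independent cultures. The p-values rest on the spread between samples of a group, pooled over the 3 groups and moderated by limma with that of all genes. That spread may therefore be technical.

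The deposited log2 levels were made by RMA, per the submitters' processing notes, a method that corrects background, scales arrays by quantiles and summarises probes. They ran from 3.89 to 13.19, with array medians of 5.95 to 6.04. Diquat replicate 3 lay farthest from its group mates over all genes, with a root-mean-square log2 difference of 0.134, where the remaining 8 arrays had 0.0714 to 0.115. Adjusted p-values are from limma with Benjamini-Hochberg adjustment over all 22180 genes, and a gene passed at an adjusted p under 0.05. Errors beside levels are SD over 3 arrays, and errors beside log2 differences are limma's standard errors.

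Interferons alpha and beta bind a receptor made of Ifnar1 and Ifnar2, which activates the kinases Jak1 and Tyk2 and through them a complex that holds Stat2 and Irf9. That complex binds the interferon-stimulated response element in the promoters of many of these genes, whereas interferon gamma acts at the gamma-activated site. Hepatocytes carry these receptors, and the induced genes encode sensors of viral nucleic acid, proteins that block viral replication, regulators that feed back on the pathway and the machinery that prepares peptides for display to T cells.

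Diquat raised a small set of the members. Ifit1, Rsad2, Cmpk2 and Xaf1 rose by 1.24-fold to 1.42-fold. In limma 0 members fell. At an unadjusted p under 0.05, 17 members were higher, against 2319 of 22180 genes. At that threshold 2 members, Ifit2 and Stat2, were lower, against 2464 genes. Paraquat raised Rsad2, Cmpk2, Xaf1 and Oasl1 by 1.15-fold to 1.30-fold. Again 0 members fell in limma. At an unadjusted p under 0.05, 9 members were higher, against 1542 of all genes, and 5 were lower, against 1792. The 5 were Ifit2, Ddx58, Parp9, Tap1 and Herc6. The 2 treatments shared the control arrays, so their calls are not independent of each other. Between paraquat and diquat 0 members passed in limma. At an unadjusted p under 0.05, 9 were lower with paraquat, against 1145 of all genes, and 0 were higher, against 1226.

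For diquat, 4 of 33 members passed (12.1%), against 7.02% of all genes in either direction and 4.13% higher. The diquat count was 6 with the replicate number as a block (1416 of all genes) and 6 without diquat replicate 2 (1908 of all genes). It was 5 with array quality weights (1861 of all genes), where 4 were higher and Ifit2 passed as lower. For paraquat, 4 of 33 passed (12.1%), against 4.57% in either direction and 2.33% higher. The paraquat count fell to 1 without control replicate 2, where 574 of all genes passed, or without control replicate 3, where 702 did. It was 2 without diquat replicate 1 or without any 1 of the paraquat arrays, where 574 to 930 genes passed. Without paraquat replicate 1, 1 of these 2 was Parp9, which passed as lower. The count stood at 7 with array quality weights (1623 of all genes) and at 7 with genes under a mean of 6 left out (1268 of the genes kept). In both of these settings 5 members were higher, and Ddx58 and Parp9 passed as lower. Every member that passed in the main fit was listed as an antiviral effector. That makes 4 of 14 for diquat and 4 of 14 for paraquat. The roles are a grouping made for this report, and this one also holds Xaf1, which favours cell death, and Oasl1, which represses translation of Irf7. Of the 19 members with other roles, 0 passed under either treatment in the main fit. Some did in alternatives. With diquat, Irf7 passed as higher in 6 of 17, and Usp18 and Eif2ak2 in 1 each. With paraquat, Ddx58 passed as lower in 5 of 17 and Parp9 in 4.

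The wider movement with diquat was small and mostly upward. The estimate was above 0 for 27 of 33 members and below 0 for 6, with a median of 0.12 on the log2 scale, while 41% of all genes were above 0 with a median of -0.02. When arrays were centred on their medians, 27 members were above 0 with a median of 0.15, and all genes turned to 59.6% above 0 with a median of 0.02. After quantile normalization 25 members were above 0 with a median of 0.08, against 43% of all genes and a median of -0.01. With paraquat, 17 members were above 0 and 16 below, with a median of 0.04, against 47.1% of all genes above 0 and a median of 0.00. All 3 diquat arrays lay above all 3 control arrays for 18 of 33 members (54.5%), against 10.1% of all genes, and below them for 1 (3.03%), against 11.2%. The 18 became 20 after centring, against 16.1% of all genes, and 13 after quantile normalization, against 10.5%. All 3 paraquat arrays lay above all 3 control arrays for 6 members (18.2%), against 9.05% of all genes, and below them for 5 (15.2%), against 10.4%. The 6 became 11 without control replicate 1, where 2813 of 22180 genes lay so, and 10 without paraquat replicate 3, where 2938 of 22180 genes did.

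The number of members above the control mean also differed among arrays of 1 group, as the plot of differences from that mean shows. Diquat replicates 1, 2 and 3 were above the control mean for 23, 24 and 27 of 33 members. Paraquat replicate 1 was above it for 24 members, paraquat replicate 2 for 18 and paraquat replicate 3 for 14. Control replicate 1 was above it for 28 members, control replicate 2 for 10 and control replicate 3 for 8. The control mean includes the control arrays, so a high count in 1 of them goes with low counts in the others. The share of all genes above the control mean was not counted by array. Their median difference from it lay between -0.02 and 0.0033 over the arrays.

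**Figure D1:**
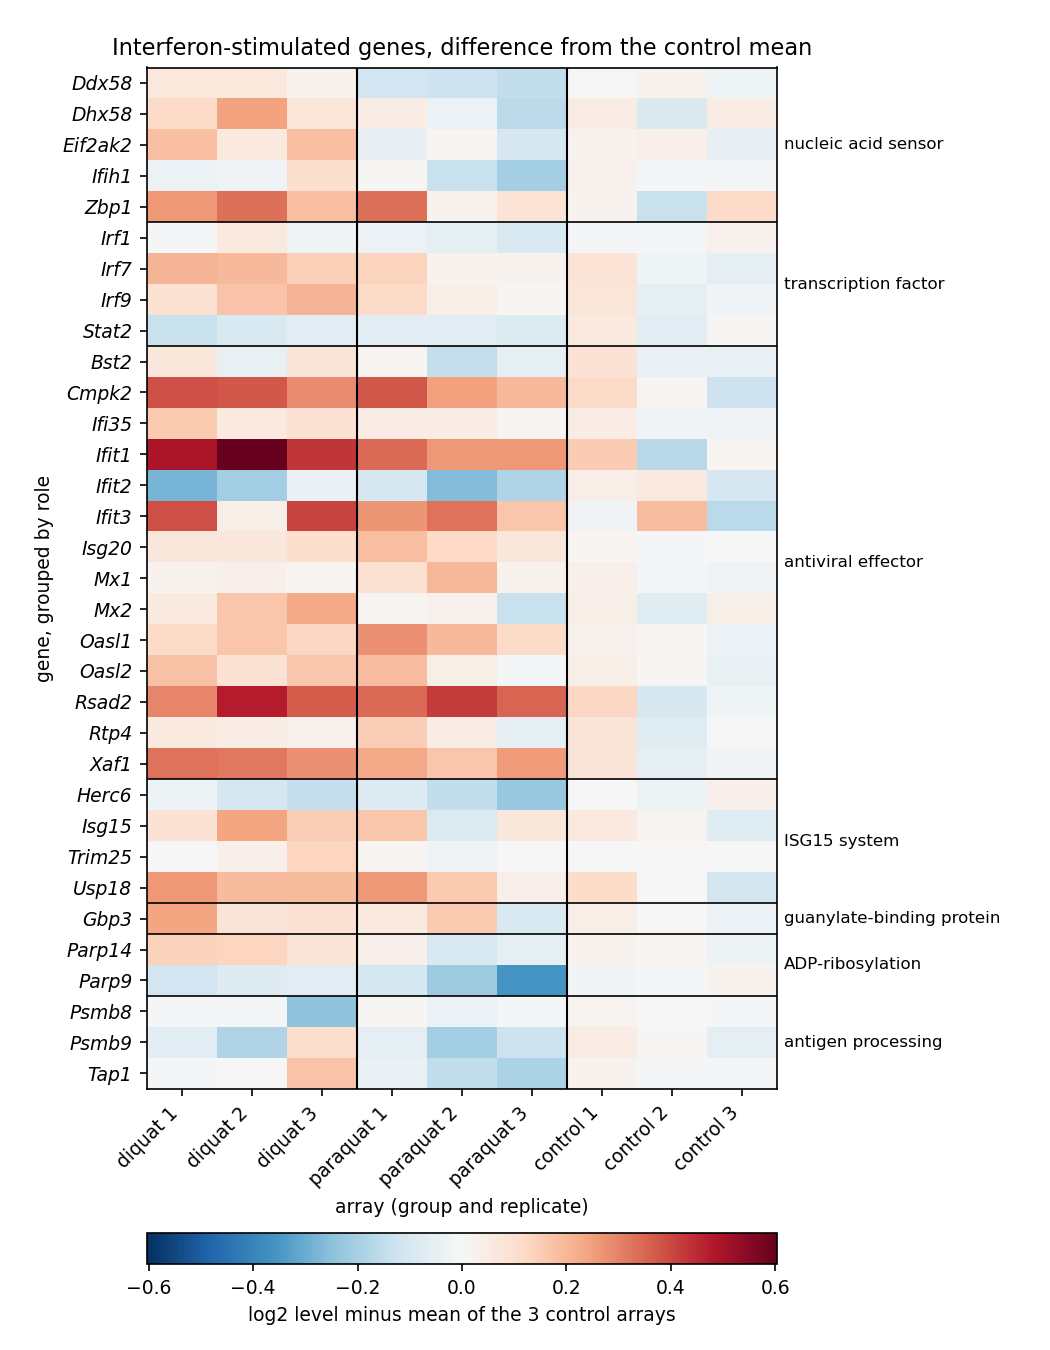
Difference of each measured member (rows, grouped by role) from the mean of the 3 control arrays, on the log2 scale (colour), for each array (columns: diquat, paraquat, control). Red marks a level above the control mean: Ifit1, Rsad2, Cmpk2 and Xaf1 are red in all 3 diquat arrays, and control replicate 1 is above the mean for 28 of 33 members.

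Among the antiviral effectors, Ifit1 had the largest estimate under diquat. Ifit1 encodes a protein that binds viral RNA and blocks its translation. Its log2 level was 9.51, 9.62 and 9.45 in the diquat arrays and 9.36, 9.28 and 9.28 in the paraquat arrays, against 9.17, 8.85 and 9.03 in the control arrays. Every diquat array was above every paraquat array, and every paraquat array was above every control array. The diquat difference was 0.51 ± 0.07 on the log2 scale (limma adjusted p = 0.00303), or 1.42-fold. The paraquat difference of 0.29 ± 0.07 did not pass (limma adjusted p = 0.0602), and over 17 alternatives its adjusted p ran from 0.0262 without control replicate 1 to 0.174.

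Rsad2 encodes viperin, an enzyme that makes a nucleotide which stops viral polymerases. Its log2 level was 7.58, 7.76 and 7.65 with diquat and 7.63, 7.71 and 7.64 with paraquat, against 7.41, 7.19 and 7.26 in controls. The treated arrays overlapped each other and all 6 lay above the control arrays. Diquat raised it by 0.38 ± 0.06 on the log2 scale, 1.30-fold (limma adjusted p = 0.00600), and paraquat by 0.37 ± 0.06 (limma adjusted p = 0.00773). The Rsad2 call held for both treatments in 17 of 17 alternatives.

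Cmpk2, a mitochondrial nucleotide kinase that supplies the substrate of viperin, is the genomic neighbour of Rsad2. It read 8.98, 8.97 and 8.88 with diquat and 8.97, 8.84 and 8.79 with paraquat, against 8.71, 8.60 and 8.47 in controls, on the log2 scale. No treated array reached down to a control array, and control replicate 1 was the nearest. The rise was 1.27-fold with diquat (log2 difference 0.35 ± 0.07, limma adjusted p = 0.0117) and 1.21-fold with paraquat (0.27 ± 0.07, limma adjusted p = 0.0462). The paraquat call was lost in 8 of 17 alternatives, with an adjusted p of at most 0.143: without control replicate 2 or 3, without diquat replicate 1 or 2, without each paraquat array in turn and in the fit of paraquat and control arrays alone.

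Xaf1, a partner of the caspase inhibitor XIAP that favours cell death, had log2 levels of 9.11, 9.10 and 9.06 with diquat and 9.01, 8.95 and 9.04 with paraquat, against 8.86, 8.73 and 8.76 in controls. The 3 groups did not overlap, with diquat highest and controls lowest. Diquat raised it 1.24-fold (log2 difference 0.31 ± 0.04, limma adjusted p = 0.00239) and paraquat 1.16-fold (0.22 ± 0.04, limma adjusted p = 0.0187). The paraquat call was lost without control replicate 2, control replicate 3, paraquat replicate 1 or paraquat replicate 3, where the adjusted p was at most 0.0878.

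Oasl1 encodes an oligoadenylate synthetase-like protein that in mice represses translation of Irf7. Its log2 level was 7.78, 7.83 and 7.79 with diquat and 7.94, 7.86 and 7.78 with paraquat, against 7.69, 7.67 and 7.63 in controls. Both treatments stood clear of the controls, and their own arrays overlapped. The paraquat rise of 0.20 ± 0.04, 1.15-fold, passed (limma adjusted p = 0.0330), and the diquat difference of 0.14 ± 0.04 did not (limma adjusted p = 0.105). Without control replicate 3 the paraquat adjusted p was 0.115, and the call was also lost without control replicate 1 or 2, without diquat replicate 1, without paraquat replicate 1 or 2 and in the fit of paraquat and control arrays alone.

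**Figure D2:**
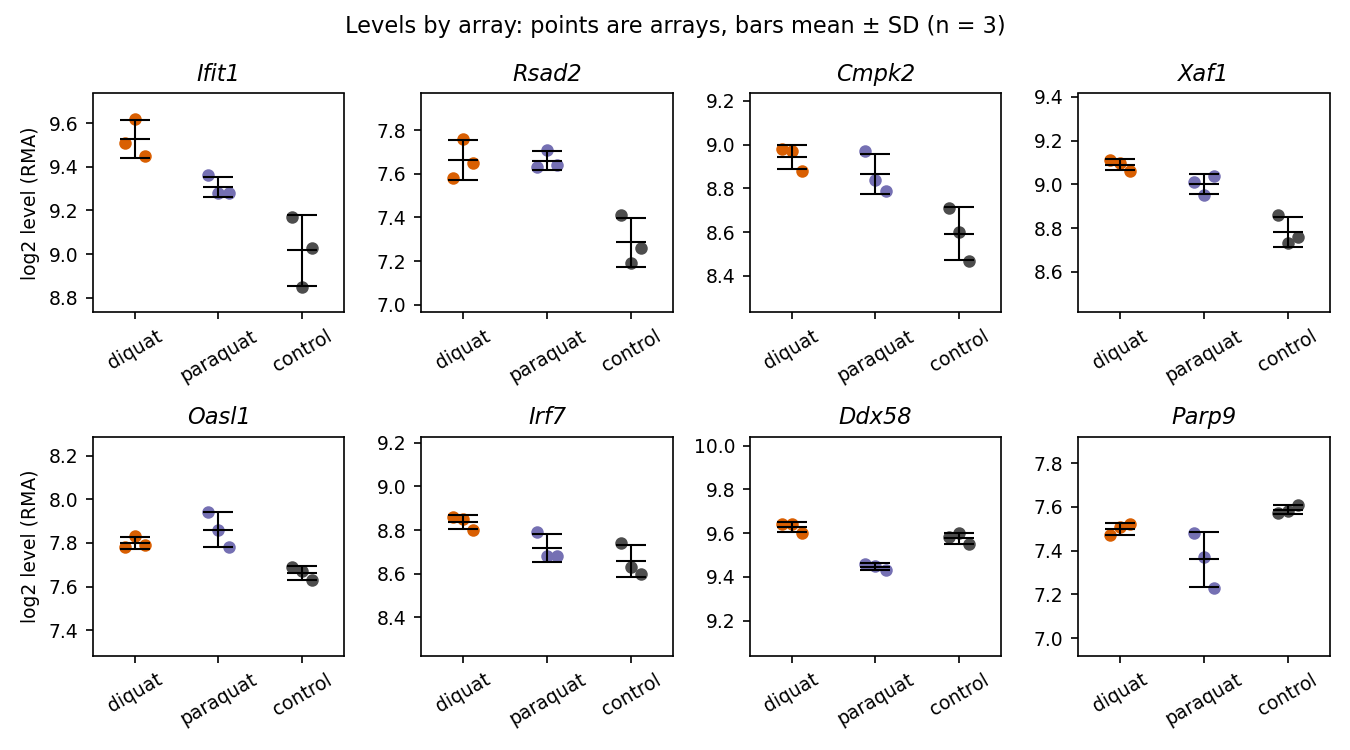
Log2 level (RMA) of 8 members in each array, by group (diquat, paraquat, control). Points are arrays and bars are mean ± SD (n = 3), on axes that each span 1 log2 unit. Ifit1, Rsad2, Cmpk2, Xaf1 and Oasl1 have all treated arrays above the controls, whereas Ddx58 has its paraquat arrays below both other groups.

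The other effectors gave smaller or less even differences, and none of them passed under either treatment. Ifit3, which stabilises Ifit1 in human cells, read 7.21, 6.86 and 7.23 with diquat and 7.09, 7.15 and 6.99 with paraquat, against 6.80, 7.01 and 6.66 in controls. Its estimates of 0.28 with diquat and 0.25 with paraquat were close to those of Cmpk2, but its standard error was 0.11 and its arrays overlapped. Without diquat replicate 2, the low diquat array, the diquat difference was 0.40 and passed (limma adjusted p = 0.0317). Ifit2, of the same family, went the other way, at -0.18 with diquat and -0.18 with paraquat (limma adjusted p = 0.176 with diquat and 0.233 with paraquat). With array quality weights the Ifit2 difference with diquat was -0.24 and passed as lower (limma adjusted p = 0.0418). The Ifit genes are close relatives, so cross-hybridisation between their probes was not tested here.

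Isg20, an exonuclease that degrades viral RNA, was 9.03, 9.03 and 9.06 with diquat and 9.14, 9.08 and 9.03 with paraquat, against 8.97, 8.95 and 8.96 in controls. These groups did not overlap with controls, but the difference of 0.08 with diquat had a limma adjusted p of 0.243, and that of 0.12 with paraquat 0.107. The oligoadenylate synthetase-like gene Oasl2 differed by 0.14 with diquat and 0.07 with paraquat. Ifi35, a leucine-zipper partner of Nmi, differed by 0.10 with diquat and 0.04 with paraquat, and a second, dimmer Ifi35 feature gave 0.01 with diquat and 0.03 with paraquat. Bst2, which tethers budding virions to the cell, differed by 0.03 with diquat and -0.06 with paraquat. Rtp4, a receptor transporter protein, differed by 0.04 with diquat and 0.05 with paraquat.

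The dynamin-like GTPases Mx1 and Mx2, which trap viral nucleocapsids, stayed low. Mx1 lay between 4.90 and 5.12 in all 9 arrays and Mx2 between 5.20 and 5.56, while the median over all features was 6.0. Detection calls were not used here, so these values cannot be separated from background. The Mx1 estimates were 0.02 with diquat and 0.10 with paraquat, and those of Mx2 were 0.15 with diquat and -0.03 with paraquat.

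The sequences upstream of these genes are shown for the members on which the counts turn. Promoter windows of 300 bases, from 250 before to 50 after the transcript start, came from RefSeq on GRCm38.p6 and were found for 29 of the 37 members. The core of the interferon-stimulated response element, GAAANNGAAA on either strand, was in 12 of the 29 members (41.4%), against 1079 of 27025 genes with a window (3.99%). The gamma-activated site TTCNNNGAA was in 8 of 29 (27.6%), against 2582 of 27025 (9.55%), and 3 members held both motifs in 1 window. A match is a description of letters and not of binding.

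Ifit1 and Rsad2 were the members that passed and held a core, and their windows are printed with each core in capitals. The Ifit1 window is chr19:34640639-34640938 on the plus strand, with cores that begin at positions -104 and -85 from the start. The Rsad2 window is chr12:26456403-26456702 on the minus strand, with 1 core that begins at position -120.
Ifit1: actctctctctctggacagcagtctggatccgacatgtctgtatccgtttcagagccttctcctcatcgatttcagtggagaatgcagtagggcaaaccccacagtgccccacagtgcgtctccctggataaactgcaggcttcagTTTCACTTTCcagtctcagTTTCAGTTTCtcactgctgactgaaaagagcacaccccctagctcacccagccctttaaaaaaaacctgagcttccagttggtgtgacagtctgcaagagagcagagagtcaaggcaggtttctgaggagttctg
Rsad2: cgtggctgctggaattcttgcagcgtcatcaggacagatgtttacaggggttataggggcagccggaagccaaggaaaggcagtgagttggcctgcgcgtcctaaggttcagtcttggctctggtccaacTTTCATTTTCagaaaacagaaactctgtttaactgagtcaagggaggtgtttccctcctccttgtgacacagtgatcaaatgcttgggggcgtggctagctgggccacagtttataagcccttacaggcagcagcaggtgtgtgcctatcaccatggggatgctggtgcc

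The reverse cases are shown beside them and were chosen after their values were seen. Cmpk2 passed under both treatments, and its window, chr12:26468965-26469264 on the plus strand, holds 0 cores. Isg15 holds 3 overlapping cores that begin at positions -78, -72 and -66, in chr4:156200769-156201068 on the minus strand, and did not pass under either treatment.
Cmpk2: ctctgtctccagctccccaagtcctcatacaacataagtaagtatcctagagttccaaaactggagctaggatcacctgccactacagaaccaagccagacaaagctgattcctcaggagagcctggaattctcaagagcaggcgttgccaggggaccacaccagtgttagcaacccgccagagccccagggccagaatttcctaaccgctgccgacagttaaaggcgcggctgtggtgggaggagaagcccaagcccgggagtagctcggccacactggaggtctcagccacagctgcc
Isg15: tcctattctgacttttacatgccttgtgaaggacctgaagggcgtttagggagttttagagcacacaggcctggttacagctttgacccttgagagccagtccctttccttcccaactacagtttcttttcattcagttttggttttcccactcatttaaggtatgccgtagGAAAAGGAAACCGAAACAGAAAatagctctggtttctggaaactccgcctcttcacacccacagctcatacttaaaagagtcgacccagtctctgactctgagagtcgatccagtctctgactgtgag

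Among the 5 members that passed under either treatment, 2 held a core (40%), and 10 of 25 measured members with a window did (40%). The gamma-activated site was in 0 of those 5 and in 7 of the 25 (28%). The windows of Cmpk2, Xaf1 and Oasl1 held 0 cores. In Ddx58, Ifih1 and Eif2ak2 the core lay just after the start, as the map of cores shows.

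**Figure D3:**
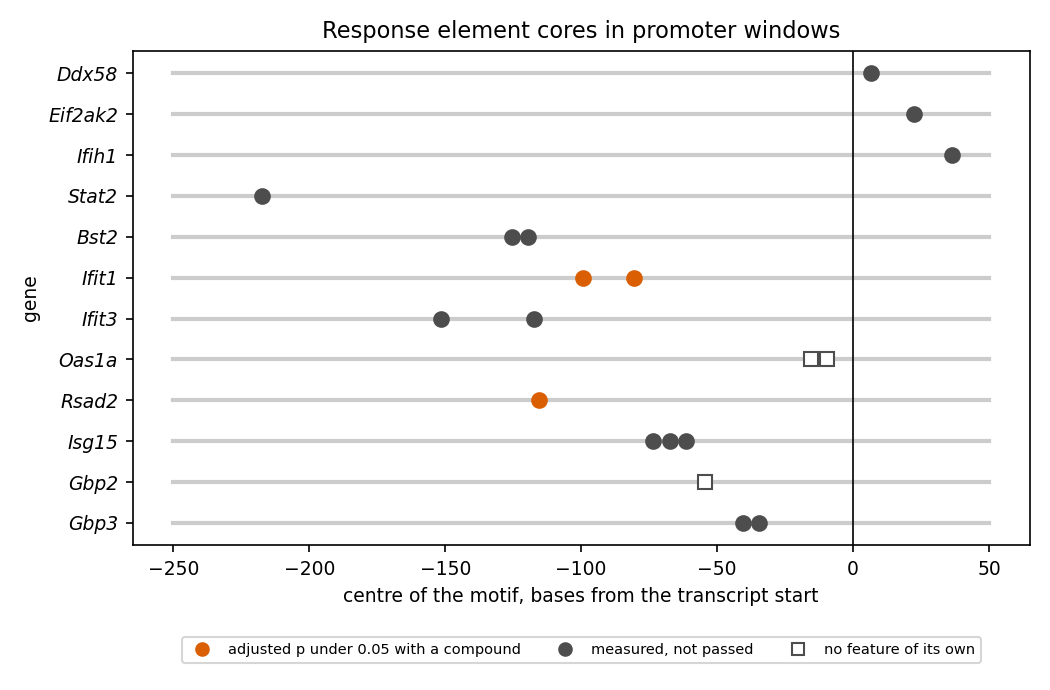
Position of each response element core in the 300-base promoter windows of the 12 members that hold one (horizontal axis, bases from the transcript start to the centre of the motif). Grey lines are windows, orange points mark Ifit1 and Rsad2, which passed under a treatment, dark points mark measured members that did not pass, and open squares mark members with no feature of their own.

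The transcription factors of the pathway did not pass under either treatment. Irf7, the amplifier of interferon alpha production, came nearest: it read 8.86, 8.85 and 8.80 with diquat and 8.79, 8.68 and 8.68 with paraquat, against 8.74, 8.63 and 8.60 in controls. The diquat arrays lay above all others, and the paraquat arrays overlapped the controls. The diquat difference was 0.18 ± 0.05 (limma adjusted p = 0.0521), which passed in 6 of 17 alternatives, among them those without control replicate 1 or paraquat replicate 1, and the paraquat difference was 0.06.

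Irf9, the DNA-binding part of the complex with Stat2, read 9.64, 9.72 and 9.75 with diquat and 9.66, 9.58 and 9.56 with paraquat, against 9.62, 9.49 and 9.53 in controls, and differed by 0.16 with diquat (limma adjusted p = 0.0872) and 0.05 with paraquat (limma adjusted p = 0.732). Its partner Stat2 differed by -0.10 with diquat and -0.07 with paraquat. Irf1, which interferon gamma induces, differed by 0.01 with diquat and -0.06 with paraquat.

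The sensors of viral nucleic acid held the member with the smallest p between the treatments. Ddx58 encodes RIG-I, which senses viral RNA ends in the cytosol. Its log2 level was 9.64, 9.64 and 9.60 with diquat and 9.46, 9.45 and 9.43 with paraquat, against 9.58, 9.60 and 9.55 in controls. The paraquat arrays lay below all 6 others, while diquat overlapped control at 9.60. The diquat difference was 0.05 ± 0.03 (limma adjusted p = 0.421) and the paraquat difference -0.13 ± 0.03 (limma adjusted p = 0.0553). The paraquat difference passed in 5 of 17 alternatives, 1 of them without diquat replicate 3.

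Ifih1 encodes MDA5, the sensor of long double-stranded RNA, and differed by 0.01 with diquat and -0.11 with paraquat. Dhx58, or LGP2, which modulates both sensors, differed by 0.14 with diquat and -0.05 with paraquat. Eif2ak2, or PKR, which halts translation when it binds double-stranded RNA, read 8.98, 8.86 and 8.98 with diquat and 8.75, 8.81 and 8.70 with paraquat, against 8.82, 8.83 and 8.75 in controls. Diquat stood above both other groups, which overlapped, and the estimates were 0.14 with diquat and -0.05 with paraquat. Zbp1, a sensor of Z-form nucleic acid that can trigger necroptosis, was 8.06, 8.13 and 7.98 with diquat and 8.13, 7.82 and 7.88 with paraquat, against 7.82, 7.66 and 7.91 in controls, with estimates of 0.26 with diquat and 0.15 with paraquat. The limma adjusted p for these 4 genes lay between 0.112 and 0.921 with diquat and between 0.421 and 0.835 with paraquat.

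The ISG15 system attaches the ubiquitin-like protein Isg15 to other proteins. Isg15 itself read 6.85, 7.0 and 6.91 with diquat and 6.93, 6.68 and 6.83 with paraquat, against 6.82, 6.78 and 6.69 in controls. The diquat arrays lay above the controls and the paraquat arrays overlapped both, with differences of 0.16 with diquat (limma adjusted p = 0.207) and 0.05 with paraquat (limma adjusted p = 0.843). Usp18, which removes Isg15 and damps receptor signalling, read 11.13, 11.06 and 11.06 with diquat and 11.13, 11.03 and 10.90 with paraquat, against 10.98, 10.87 and 10.76 in controls. Its differences were 0.21 ± 0.07 with diquat (limma adjusted p = 0.0959) and 0.15 ± 0.07 with paraquat (limma adjusted p = 0.331). Herc6, the main Isg15 ligase in mice, differed by -0.09 with diquat and -0.15 with paraquat, and Trim25, a ligase that acts on RIG-I, by 0.05 with diquat and -0.0033 with paraquat.

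Parp9 was the 1 member whose diquat arrays all lay below the controls. It encodes an ADP-ribosyltransferase-like protein that works with the ligase Dtx3l on chromatin and antiviral signalling. It read 7.47, 7.51 and 7.52 with diquat and 7.48, 7.37 and 7.23 with paraquat, against 7.57, 7.58 and 7.61 in controls. The paraquat difference was -0.23 ± 0.06 (limma adjusted p = 0.0510), which passed in 4 of 17 alternatives, and the diquat difference was -0.09. Without paraquat replicate 1 the paraquat adjusted p was 0.0125. Parp14, a mono-ADP-ribosyltransferase, differed by 0.12 with diquat and -0.04 with paraquat and did not pass.

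Gbp3, a guanylate-binding GTPase that acts on intracellular microbes, differed by 0.13 with diquat and 0.04 with paraquat. The 3 antigen processing genes did not pass under either treatment. The immunoproteasome subunits Psmb8 and Psmb9 differed by -0.09 and -0.05 with diquat and by -0.01 and -0.13 with paraquat. Tap1, the peptide transporter of the endoplasmic reticulum, differed by 0.05 with diquat and -0.13 with paraquat, where its limma adjusted p was 0.319. Besides Tap1, the members with all paraquat arrays below all control arrays were Irf1, Ddx58, Parp9 and Herc6.

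**Figure D4:**
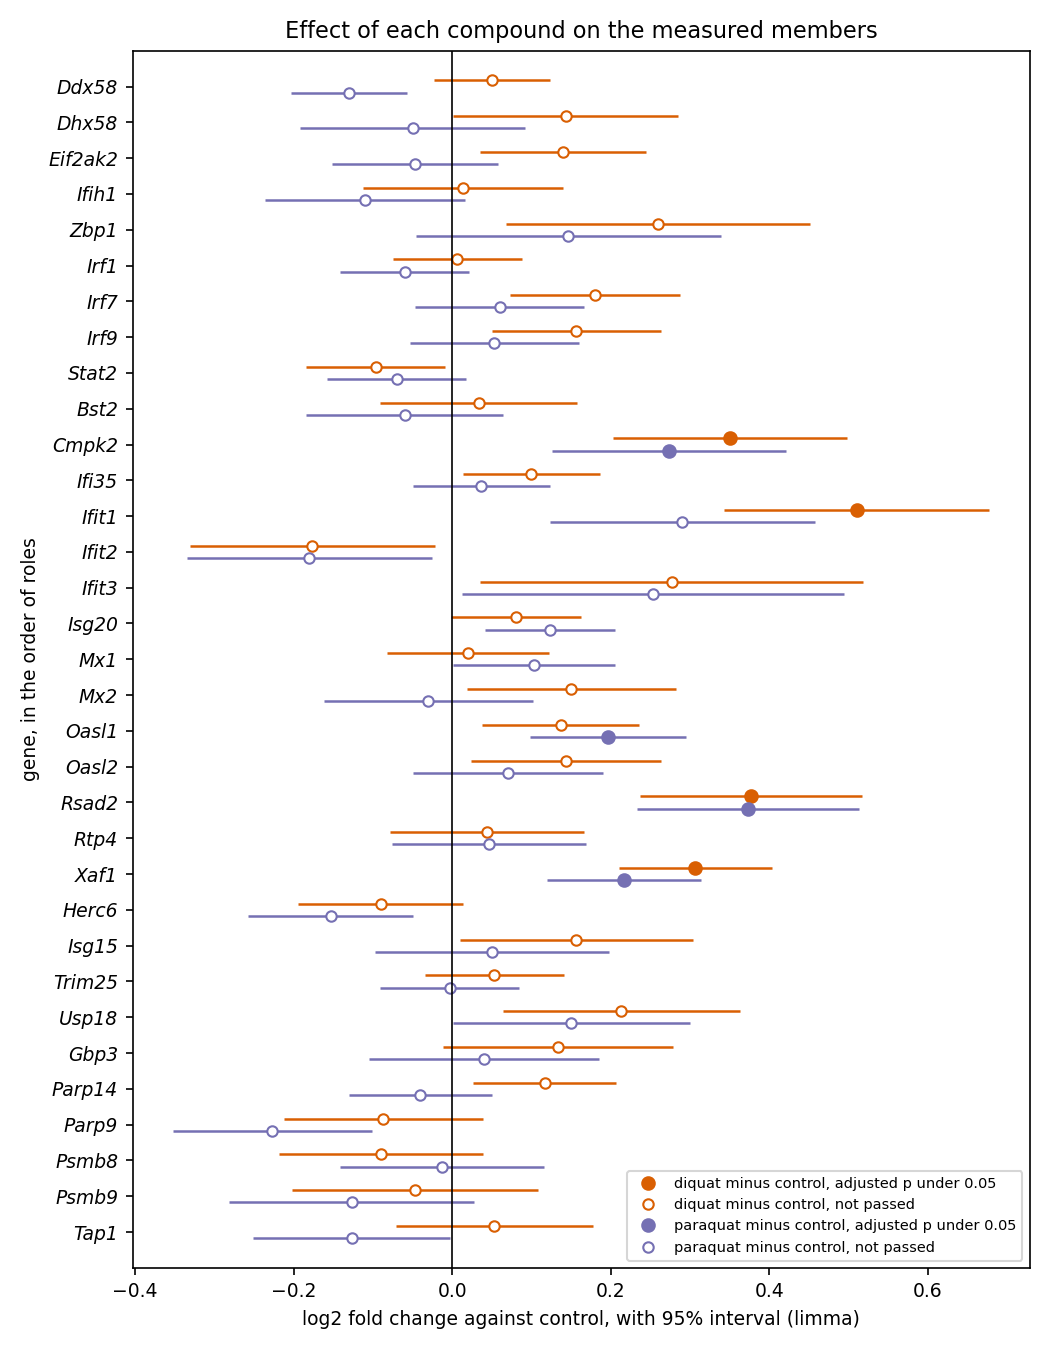
Log2 difference of each measured member from control (horizontal axis, with limma's 95% interval) for diquat (orange) and paraquat (purple), in the order of roles. Filled points passed the adjusted p: Ifit1, Rsad2, Cmpk2 and Xaf1 with diquat, and Rsad2, Cmpk2, Xaf1 and Oasl1 with paraquat.

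Set directly against each other, paraquat and diquat cells differed by estimates that were mostly below 0, and no member passed. The estimate of paraquat minus diquat was below 0 for 27 of 33 members and above 0 for 6, with a median of -0.08 on the log2 scale, while 53.2% of all genes were above 0 with a median of 0.01. After centring, 29 members were below 0 with a median of -0.11, and all genes turned the same way, with 34.1% above 0 and a median of -0.03. After quantile normalization 25 members were below 0 with a median of -0.06, against 51.7% of all genes above 0. In this comparison 0 of 33 members passed, as did 0% of all genes, and the smallest limma adjusted p among members was 0.248. At an unadjusted p under 0.05 there were 9 members (27.3%), against 2371 genes (10.7%).

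All 3 paraquat arrays lay below all 3 diquat arrays for 11 members (33.3%), against 5.18% of all genes, and above them for 0 members, against 5.36%. The 11 were Ifit1, Irf1, Irf7, Mx2, Ddx58, Dhx58, Ifi35, Parp14, Eif2ak2, Xaf1 and Tap1, and 21 lay so without paraquat replicate 1, where 10.9% of all genes did. After quantile normalization 5 members did, against 6.42% of all genes. The difference for Ddx58 was -0.18 ± 0.03 (95% interval -0.25 to -0.11, limma adjusted p = 0.248). For Eif2ak2 it was -0.19 ± 0.05 (-0.29 to -0.08, limma adjusted p = 0.339), and for Ifit1 -0.22 ± 0.07 (-0.39 to -0.05, limma adjusted p = 0.409). Rsad2 gave a difference that rounded to 0 with an interval of -0.14 to 0.14, and Cmpk2 gave -0.08 with -0.22 to 0.07. Over all members the intervals ran from -0.39 at the lowest to 0.22 at the highest.

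**Figure D5:**
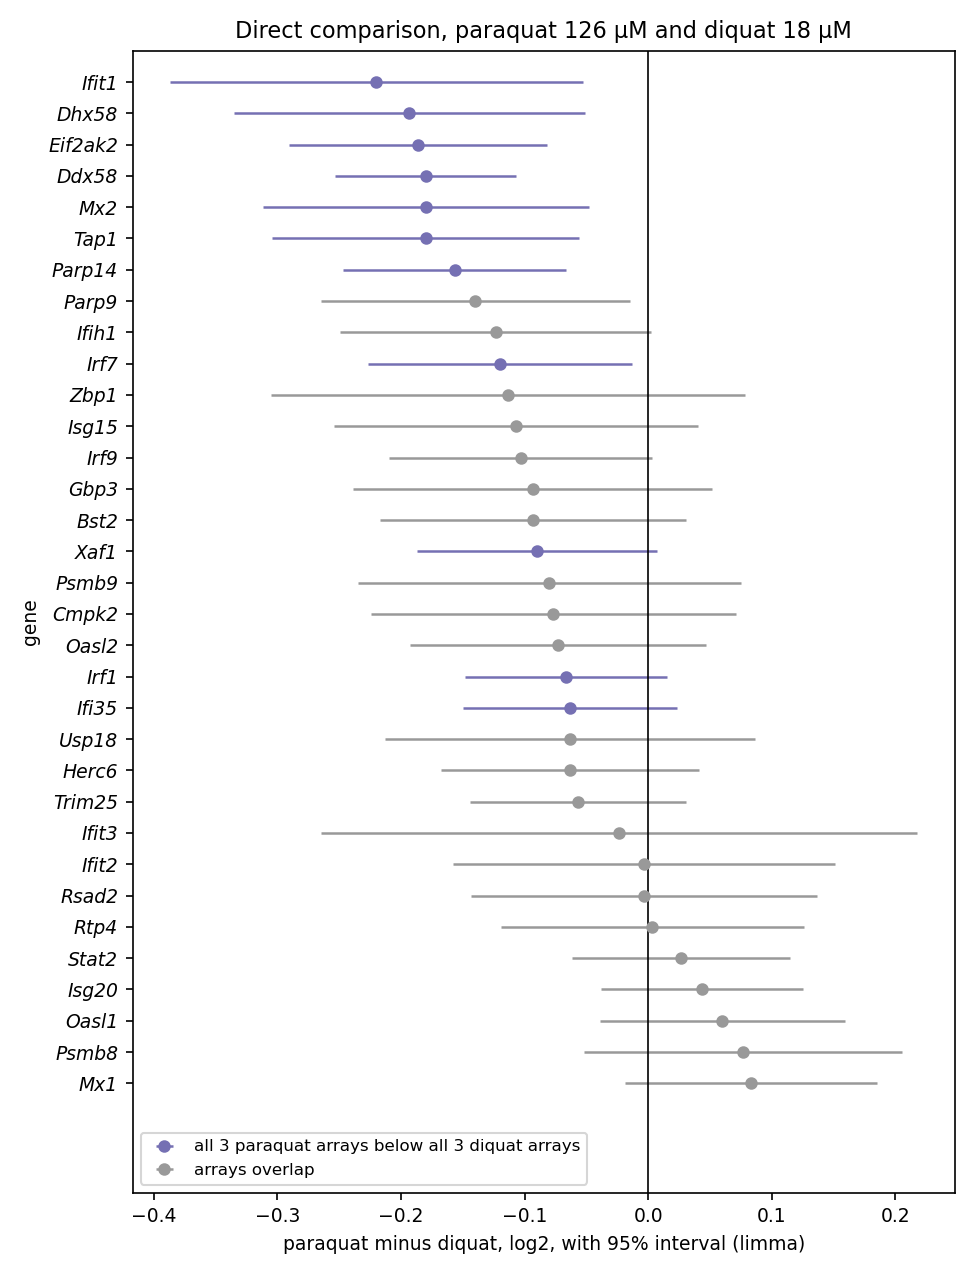
Paraquat minus diquat on the log2 scale for each measured member (horizontal axis, with limma's 95% interval), ordered by estimate. Purple points are the 11 members whose 3 paraquat arrays all lay below the 3 diquat arrays, grey points those whose arrays overlapped, and 27 of 33 estimates are below 0.

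Of 19 interferon genes with a feature of their own, 0 passed in limma under either treatment. Over all genes 7.02% passed with diquat and 4.57% with paraquat. At an unadjusted p under 0.05, 1 of the 19 was higher and 1 lower with diquat, against 2319 and 2464 of 22180 genes. With paraquat 1 was higher and 0 lower, against 1542 and 1792 of all genes. Of the 19, 7 had a mean above the median of all features. Ifnb1, the interferon beta gene, averaged 5.28 ± 0.12 with diquat and 5.24 ± 0.01 with paraquat, against 5.21 ± 0.09 in controls (SD, n = 3 each). The brightest were Ifna1, with differences of -0.18 with diquat and -0.15 with paraquat, and Ifna4, with 0.11 with diquat and 0.0033 with paraquat. The interferon alpha genes are near-identical copies, so a value for 1 of them may hold signal from others.

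Of 15 measured genes of the interferon receptors and their kinases and regulators, 1 passed, and it passed under both treatments (6.67%, against 7.02% of all genes with diquat and 4.57% with paraquat). Ptpn6, a tyrosine phosphatase that damps cytokine receptor signalling, read 7.0, 6.97 and 6.92 with diquat and 6.99, 7.02 and 7.02 with paraquat, against 7.27, 7.28 and 7.24 in controls. All treated arrays lay below the controls, and Ptpn6 fell by 0.30 with diquat and by 0.25 with paraquat on the log2 scale (limma adjusted p = 0.000712 with diquat and 0.00266 with paraquat). The receptor chain Ifnar1 differed by -0.09 with diquat (limma adjusted p = 0.232) and -0.15 with paraquat (limma adjusted p = 0.0675). Ifnar2 differed by -0.04 with diquat and -0.09 with paraquat. The kinases Jak1 and Tyk2 differed by -0.03 and 0.06 with diquat, and Tyk2 by 0.06 with paraquat. Jak1 averaged 9.98 in both paraquat and control arrays.

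The sensing pathway leads from viral RNA or DNA to interferon transcription. Of its 18 measured genes, diquat raised 4 and lowered 0 (22.2%, against 7.02% of all genes in either direction and 4.13% higher). Paraquat raised 1 and lowered 1 (11.1%, against 4.57% in either direction). Tlr3, the endosomal receptor of double-stranded RNA, read 8.89, 8.90 and 8.97 with diquat and 8.73, 8.65 and 8.58 with paraquat, against 8.71, 8.66 and 8.54 in controls. The diquat arrays stood above both other groups, which overlapped, at a difference of 0.28 ± 0.05 (limma adjusted p = 0.0122), while the direct paraquat minus diquat difference of -0.27 ± 0.05 had a limma adjusted p of 0.302. The others raised by diquat were the RNA-editing enzyme Adar (0.19), the NF-kB subunit Rela (0.16) and the AP-1 subunit Jun (0.20), of which Rela and Jun serve many pathways besides this one. The Adar call was lost without control replicate 1, 2 or 3 or without diquat replicate 1 or 3, with an adjusted p of at most 0.0980. The Rela call was lost without control replicate 2 or 3, without diquat replicate 1 or 3 and in the fit of diquat and control arrays alone, with at most 0.122. The Jun call held in 6 of 17 alternatives. It was lost without each control or paraquat array in turn and without diquat replicate 2 or 3, with at most 0.140. It was also lost with array quality weights, with the replicate number as a block and in the fit of diquat and control arrays alone. Paraquat raised Rela by 0.18 (limma adjusted p = 0.0240), and Samhd1, which hydrolyses the nucleotides viruses need, fell by 0.21 (limma adjusted p = 0.0308), and both calls were lost without control replicate 2 and without each paraquat array in turn. The Rela call with paraquat was also lost without control replicate 3 and after centring, with an adjusted p of at most 0.107. The Samhd1 call was also lost without control replicate 1 and in the fit of paraquat and control arrays alone, with at most 0.129. With diquat Samhd1 differed by -0.18 with all diquat arrays below the controls (limma adjusted p = 0.0503), and it passed in 5 of 17 alternatives, 1 of them without control replicate 3. The adaptor Mavs, the kinase Tbk1 and the factor Irf3 did not pass, with estimates between -0.01 and 0.09.

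A broader list of 110 interferon-induced genes outside the 37 held 98 measured genes, and its largest values were larger than those of the members. Diquat raised 15 and lowered 2 of them (17.3% passed, against 7.02% of all genes), and paraquat raised 5 and lowered 2 (7.14%, against 4.57%). The 2 that fell were Iigp1 and Psmb10 with diquat and Iigp1 and Samhd1 with paraquat. Psmb10, an immunoproteasome subunit named after its values were seen, fell by 0.19 with diquat (limma adjusted p = 0.0179). The median differences were 0.05 with diquat, 0.01 with paraquat and -0.045 for paraquat minus diquat, against -0.02, 0.00 and 0.01 over all genes. For paraquat minus diquat 0 of the 98 passed in limma, as did 0% of all genes. At an unadjusted p under 0.05, 18 of the 98 were lower and 0 higher, against 1145 and 1226 of 22180 genes. In that comparison 70 of the 98 were below 0, against 44.6% of all genes. After centring, 87 were below 0 in the direct comparison with a median of -0.08 (all genes 34.1% above 0, median -0.03). The diquat median after centring was 0.085 (all genes 0.02). After quantile normalization the paraquat median was -0.0010 (all genes -0.0078). In the direct comparison 72 were then below 0, against 51.7% of all genes above 0. Adar and Samhd1 are on this list and on the sensing list.

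Ifi205 and Ifi204 belong to the p200 family of interferon-inducible DNA-binding proteins. Ifi205 read 7.03, 6.73 and 6.74 with diquat and 6.53, 6.54 and 6.47 with paraquat, against 5.93, 5.67 and 5.80 in controls. The 3 groups did not overlap, and Ifi205 was 2.05-fold higher with diquat (limma adjusted p = 8.35e-05) and 1.64-fold higher with paraquat (limma adjusted p = 0.00115). Ifi204 averaged 10.37 ± 0.19 with diquat and 10.17 ± 0.09 with paraquat, against 9.64 ± 0.09 in controls (SD, n = 3 each), rises of 1.66-fold with diquat and 1.44-fold with paraquat. The p200 genes are close paralogs in 1 cluster, so the array may not separate them.

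Cxcl10, a chemokine that draws T cells, rose by 0.44 with diquat and 0.44 with paraquat on the log2 scale (limma adjusted p = 0.00606 with diquat and 0.00695 with paraquat). Cd274, the checkpoint ligand of T cells, rose by 0.42 with diquat and 0.37 with paraquat. Casp4, the caspase that senses intracellular lipopolysaccharide, rose by 0.42 with diquat, and its paraquat difference of 0.32 did not pass (limma adjusted p = 0.0542). Nt5c3, a pyrimidine nucleotidase, rose by 0.36 with diquat and differed by 0.08 with paraquat. Phf11b rose by 0.35 with diquat and differed by 0.09 with paraquat. The diquat call of Casp4 was lost without control replicate 2 (adjusted p = 0.0568). That of Nt5c3 was lost without control replicate 1 or 2, without diquat replicate 1 and in the fit of diquat and control arrays alone, with an adjusted p of at most 0.115. That of Phf11b was lost without paraquat replicate 1 or each diquat or control array in turn, with at most 0.151. The Phf11b call was also lost after quantile normalization and with the replicate number as a block. Tor3a, named after its values were seen, was the fifth gene raised by paraquat, at 0.26, and diquat raised it by 0.25. Iigp1, an interferon-inducible GTPase that attacks the vacuoles of parasites, went the other way: it averaged 6.92 ± 0.12 with diquat and 6.85 ± 0.09 with paraquat, against 7.45 ± 0.11 in controls (SD, n = 3 each). It fell by 0.54 with diquat (limma adjusted p = 0.00231) and by 0.60 with paraquat (limma adjusted p = 0.00158) on the log2 scale.

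Markers of other cell types were set beside these results, because fewer cells of a type and less RNA per cell cannot be told apart in RNA from whole dishes. The hepatocyte gene Alb averaged 12.73 in each of the 3 groups, and all 15 measured hepatocyte markers were above the median of all features. Of those 15, diquat lowered 6 (40%, against 7.02% of all genes passing in either direction) and paraquat lowered 5 (33.3%, against 4.57%), and the 3 lowered by both were Ttr, Fga and Cps1, named after their values were seen. The bright hepatocyte genes Krt8 and Ahsg did not pass: Krt8 differed by 0.04 with diquat and 0.03 with paraquat, and Ahsg by -0.02 with diquat and -0.07 with paraquat. Of 19 immune cell markers, 8 had a mean above that median, and the median of the list by array ran from 5.63 to 5.72 with diquat and from 5.73 to 5.84 with paraquat, against 5.72 to 5.88 in controls. At an unadjusted p under 0.05, 1 of the 19 was higher and 2 were lower with diquat, against 2319 and 2464 of 22180 genes. With diquat 13 of the 19 estimates were below 0, against 57.4% of all genes. Diquat raised 1 of the 19 in limma (5.26%, against 7.02% of all genes in either direction and 4.13% higher). It was the macrophage gene Cd68, by 0.40 (limma adjusted p = 0.0343). That call was lost without control replicate 2 or 3, without diquat replicate 2 or 3 and without each paraquat array in turn. It was also lost with array quality weights and in the fit of diquat and control arrays alone, with an adjusted p of at most 0.107. Paraquat raised 0 of the 19 in limma. At an unadjusted p under 0.05, 2 were higher and 0 lower with paraquat, against 1542 and 1792 of all genes. Cd68 differed by 0.35 with paraquat (limma adjusted p = 0.0732). The next brightest of the 19, Nkg7 and Marco, had estimates between -0.01 and 0.02. Of 14 endothelial and stellate markers 0 passed in limma under either treatment. At an unadjusted p under 0.05, 2 of the 14 were lower with diquat, against 2464 of 22180 genes, and 1 with paraquat, against 1792. The brightest of them, Col1a1, a collagen chain, differed by -0.21 with diquat (limma adjusted p = 0.0514) and -0.15 with paraquat (limma adjusted p = 0.205). Acta2 differed by -0.11 with diquat and -0.08 with paraquat, and Col1a2 by -0.11 with diquat and -0.12 with paraquat. Whether these markers have a part in the values of the interferon-stimulated genes was not tested.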

How the data were processed

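Per the submitters' processing notes, the authors made the deposited log2 values with Affymetrix Expression Console 1.1 and RMA, for which no settings are stated. Total RNA from each sample was labelled with biotin and hybridised to 1 array. Groups and replicate numbers came from the sample titles, and the descriptions of the diquat and paraquat samples give the number 1 to all replicates. The table held 34472 features, rounded to 2 decimals. Features were named from the platform annotation, of which 23521 carried 1 gene symbol, 1814 several and 9137 none. Only the first kind was used to name genes, which gave 22180, of which 1082 had several features. The array annotation's build is not stated, so no array coordinates are given.

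The log2 values were used as deposited. R 4.3.3 and limma 3.58.1 fitted 1 mean per group over all 9 arrays (lmFit, eBayes, two-sided), without covariates. The fit was tested on simulated data. Alternatives were median centring, quantile normalization, an intensity trend with a robust prior, leaving out genes with a mean under 6, only the groups compared, the replicate number as a block, the mean of a gene's features, array quality weights and leaving out each array, 17 in all. Promoter windows and motif matches were read in Python 3.11.15, and figures were drawn with matplotlib 3.10.9.

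The members and lists were chosen with earlier results of these data known. All measured members are named. Of each other list, the rule named the genes that passed with diquat or paraquat, at most 8 by absolute log2 difference, or else the 2 brightest, besides Ifnb1, Ifnar1, Ifnar2, Jak1, Tyk2, Irf3, Mavs and Tbk1, and the 3 brightest of each marker list. 1 gene named in the rule is not reported here. Detection calls and scanner output were not used here. The number of arrays limits the precision.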

Additional observations from a re-analysis of the deposited data

Results flagged for a closer look

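Ddx58, which encodes the RNA sensor RIG-I, drew attention because its 3 diquat arrays all lay above the control mean and its 3 paraquat arrays all lay below it. The differences from control were 0.05 with diquat and -0.13 with paraquat on the log2 scale. The direct difference, paraquat minus diquat, was -0.18 ± 0.03 (limma standard error), with an unadjusted p of 0.000272 in limma and an adjusted p of 0.248, so it did not pass over all genes.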

How the results depend on the processing

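Of 1677 member estimates under the alternatives, 1605 kept their direction and their side of the threshold, 23 passed that had not, 19 no longer passed, and 30 that never passed turned sign; none that passed turned sign. The diquat calls of Ifit1, Rsad2, Cmpk2 and Xaf1 and the paraquat call of Rsad2 held in 17 of 17 alternatives, and the paraquat calls of Xaf1, Oasl1 and Cmpk2 in 13, 10 and 9. Members that passed with paraquat numbered 7 with genes under 6 left out (1268 of the genes kept) and 7 with array quality weights. In both settings 5 of them were higher, and Ddx58 and Parp9 were lower. They numbered 1 to 5 when 1 array was left out. Over all genes, diquat calls numbered 959 in the fit of the groups compared and 802 to 1908 with 1 array left out, paraquat calls 1623 with array quality weights and 574 to 1197 with 1 array left out, and paraquat minus diquat calls 1 after centring, 4 after quantile normalization, 4 with genes under 6 left out and 0 to 3 with 1 array left out. Members with all paraquat arrays below all diquat arrays numbered 5 after quantile normalization, against 6.42% of all genes. With 1 array left out they numbered 11 to 21, where 5.18% to 12.3% of all genes lay so. Members with all paraquat arrays above all control arrays numbered 6 to 11 with 1 array left out, where 9.05% to 14.1% of all genes did. The share of higher calls over all genes was 58.9% with diquat (77.5% centred, 45.2% quantile normalized) and 51% with paraquat (55% and 43.9%). The cause of these changes was not tested.

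With the replicate number as a replicate block, 6 members passed with diquat, 4 with paraquat and 0 between the compounds, with 1416, 930 and 0 over all genes. Deviations of same-numbered arrays correlated between -0.19 and 0.20. Between control and paraquat they correlated at 0.16, 0.13 and 0.09, and differently numbered arrays at -0.12 to -0.02. Between diquat and control the same-numbered values were -0.11 to 0.08 and the others -0.33 to 0.25. Between diquat and paraquat they were -0.19 to 0.20 and -0.17 to 0.28. Deviations were taken from the group means, so the same-numbered and differently numbered values are not independent of each other. The main fit did not take the numbers as pairs.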
